A study of Mus musculus with 54 samples.

Results

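The 44 genes described here are interferon-stimulated genes listed as outside the IFIT, MX, OAS, GBP, IRG, IRF, STAT and PYHIN families. The list nonetheless holds Stat5a and Gm4951, an interferon-inducible GTPase-like gene. The 44 genes were taken by symbol from this fixed list. All were found among the 55536 genes of the RNA tables of sorted mouse microglia, the resident macrophages of the brain. RNA was sequenced in 24 libraries, 3 in each of 8 groups, and the genes were followed through a model of recurrent lipopolysaccharide (LPS) injection and a model of accelerated ageing. In the recurrent model, male C57BL/6J mice aged 7 to 9 weeks on arrival were injected intraperitoneally 2 times, 1 month apart, with PBS (P) or with LPS at 1 mg/kg (L). This gives the groups PP, LP, PL and LL, named by the order of the injections. In the Ercc1 model, mice of 10 to 12 weeks lacked normal function of the DNA repair gene Ercc1 (KO, Ercc1Δ/ko, with 1 truncated and 1 null allele, on a mixed FVB and C57BL/6 background) or were littermate controls. They received PBS or LPS once, by the same route and with LPS also at 1 mg/kg. This gives KO-PBS, KO-LPS and the control groups WT-PBS and WT-LPS. The controls named WT were of mixed genotype (Ercc1wt/Δ, Ercc1wt/ko or Ercc1wt/wt), the deficiency was present in all cells of the mouse and not in microglia alone, and brains were collected 3 h after the final injection. ATAC lists come from 2 pooled mice per group and histone mark lists from 5, so the chromatin results have no replicates.

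Type I interferon binds its receptor and activates the kinases Jak1 and Tyk2, and transcription factors then bind interferon-stimulated response elements (ISRE) in the promoters of target genes. LPS, a cell wall component of Gram-negative bacteria, signals through Toll-like receptor 4 and can reach the same genes through secreted interferon beta. The products block viral entry and release, degrade or sense foreign RNA, attach the ubiquitin-like protein ISG15, add ADP-ribose to proteins or build nuclear bodies, and in microglia this programme is known from infection, ageing and neurodegeneration.

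The libraries held 4530395 to 15307836 expected counts in the recurrent model and 18243891 to 34659337 in the Ercc1 model. Levels are given in CPM, the count scaled to library size with TMM factors. A gene passed the test at an adjusted p under 0.05 in edgeR's quasi-likelihood test over all genes, with no minimum fold change. After the filter on low counts, 42 of the 44 genes were tested among 16096 in the recurrent model (Ifi44 and Slfn1 had too few counts) and all 44 among 17460 in the Ercc1 model. Ercc1 itself was at 8.79 to 11.0 CPM in WT-PBS and 5.14 to 8.18 CPM in KO-PBS, without overlap, -0.57 on the log2 scale (adjusted p = 0.097, standard error 0.20), and between KO-LPS and WT-LPS the change was -0.67 (adjusted p = 0.030). The 5 microglial markers (P2ry12, Tmem119, Cx3cr1, Sall1, Fcrls) were detected in every group, with sums of 6677 to 27431 CPM. The WT-PBS library Control_PBS_175 stood apart, at 7695 CPM against 25362 and 27431 CPM in the other WT-PBS libraries, and the counts of higher genes in the Ercc1 model are also given without it. Markers of neutrophils were all at 0 in WT-PBS and summed to at most 0.0312 CPM in KO-PBS, while monocyte markers summed to 5.28 to 28.4 CPM in WT-PBS and 19.6 to 24.2 CPM in KO-PBS. Of the 3 monocyte markers tested, 1, Plac8, was higher in KO-PBS than in WT-PBS and 0 were lower. Because these are bulk samples, fewer cells of a type and less RNA per cell cannot be told apart.

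Promoter sequences are given first. Of the 44 genes, 36 have windows in the RefSeq promoter table (GRCm38.p6, 250 bases before to 50 after the start). The others are Gm4951, Ifi27l2a, Ly6e, Parp10, Parp14, Parp9, Rtp4 and Tor3a. The core letters of the ISRE, GAAANNGAAA on either strand, occurred in 15 of 49 windows of these genes (30.6%) and in 3.44% of all 32851 windows, and in 13 of the 36 genes. The letters of the GAS element, TTCNNNGAA, occurred in 16.3% of the windows of these genes and 8.30% of all, and the NF-kB site in 14.3% and 8.46%. A selection of the stretches with an ISRE core is printed, and not every gene with a core is shown. The capitals mark the ISRE core, or its reverse complement where the core lies on the other strand, and overlapping cores are joined:
Bst2, chr8:71537572-71537617, minus strand: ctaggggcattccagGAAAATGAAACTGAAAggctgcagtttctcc
Ifitm3, chr7:141010701-141010740, minus strand: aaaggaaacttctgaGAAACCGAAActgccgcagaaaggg
Eif2ak2, chr17:78882530-78882569, minus strand: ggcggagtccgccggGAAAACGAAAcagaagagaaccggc
Ddx60, chr8:61928053-61928092, plus strand: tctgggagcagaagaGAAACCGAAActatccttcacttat
Slfn5, chr11:82951932-82951971, plus strand: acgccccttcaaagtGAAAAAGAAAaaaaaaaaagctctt
Slfn8, chr11:83020834-83020873, minus strand: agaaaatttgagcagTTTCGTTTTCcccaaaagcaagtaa
Slfn9, chr11:82991851-82991890, minus strand: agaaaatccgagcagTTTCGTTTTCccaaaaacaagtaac
Trim21, chr7:102565439-102565484, minus strand: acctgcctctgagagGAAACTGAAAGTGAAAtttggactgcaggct
Trim30a, chr7:104465205-104465244, minus strand: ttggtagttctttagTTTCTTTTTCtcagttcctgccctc
Trim30d, chr7:104507866-104507905, minus strand: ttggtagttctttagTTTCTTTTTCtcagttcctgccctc
Bst2 and Trim21 carry overlapping cores, and Slfn8 and Slfn9 share most letters. The stretches of Trim30a and Trim30d are identical, and since reads that fit several genes appear as fractions in these tables, the counts of Trim30a and Trim30d, Slfn8 and Slfn9, Slfn1 and Slfn2, and Ifitm2 and Ifitm3 may not be fully separate. Parp9 and Dtx3l start head to head on opposite strands of chromosome 16 and overlap, so that their reads may also be mixed.

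The first question was which of these genes were raised by the Ercc1 genotype without LPS. In KO-PBS, 40 of the 44 were higher than in WT-PBS and 0 were lower, where 8.19% of all tested genes were higher and 3.37% lower. The median log2 fold change was 1.14, against -0.02 over all genes. All KO-PBS libraries lay above all WT-PBS libraries for 41 of the 44 genes, but the share of all genes so separated was not counted. Without Control_PBS_175, 41 genes passed. Left-out libraries moved the count between 34 (without KO_PBS_642) and 41. Markers of border-associated macrophages summed to 18.9 to 34.1 CPM in KO-PBS and 7.29 to 15.5 CPM in WT-PBS, markers of T and NK lymphocytes to 1.09 to 1.71 CPM and 0.352 to 0.704 CPM, and their part in the changes was not tested.

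**Figure D1:**
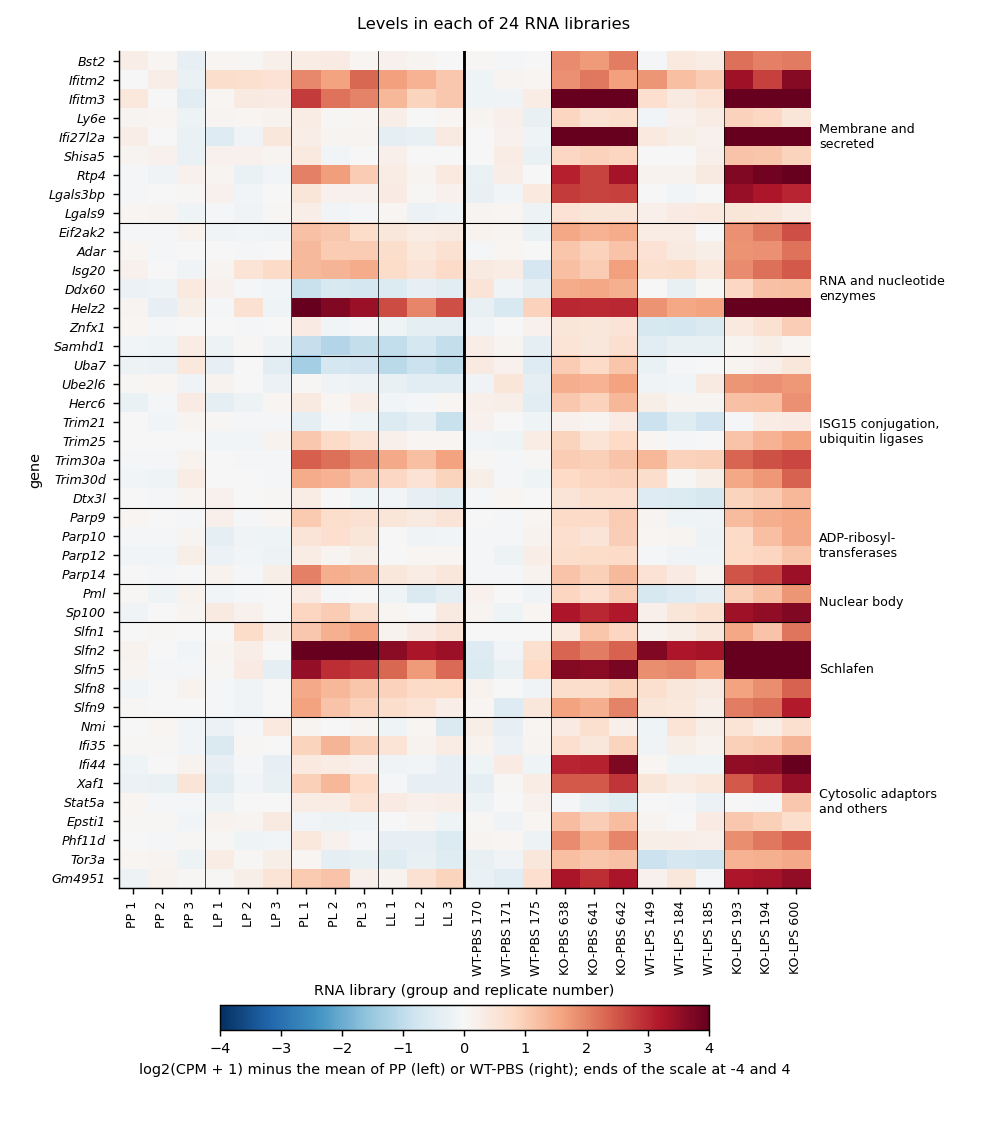
Rows are the 44 genes in role groups and columns the 24 RNA libraries, and the colour is log2(CPM + 1) minus the mean of the PP libraries (left of the thick line) or the WT-PBS libraries (right), limited to -4 and 4. Against WT-PBS, 40 genes were higher in KO-PBS and 9 in WT-LPS, and against PP 22 were higher in PL.

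Among the 9 genes for membrane and secreted proteins, all were higher in KO-PBS, with log2 fold changes of 0.51 to 5.36. Ifi27l2a, an interferon-induced membrane protein of mitochondria, was at 0.810, 1.06 and 0.617 CPM in WT-PBS and at 27.5, 29.8 and 44.2 CPM in KO-PBS. All KO-PBS libraries lay far above all WT-PBS libraries, and the log2 fold change was 5.36 (standard error 0.27, adjusted p = 2.5e-07). In WT-LPS it was at 1.39, 1.12 and 1.06 CPM.
Ifitm3, which stops enveloped viruses from fusing with endosomal membranes, was at 1.55, 1.62 and 2.57 CPM in WT-PBS, 52.6, 44.1 and 50.7 CPM in KO-PBS, and in WT-LPS at 3.64, 2.66 and 3.20 CPM. The genotype change was 4.66 on the log2 scale (standard error 0.21, adjusted p = 1.2e-07) and the LPS change 0.71 (standard error 0.20, adjusted p = 0.029), and each group lay above WT-PBS without overlap. The LPS call was lost in 6 alternatives, with an adjusted p of up to 0.16.
Rtp4, a chaperone of membrane receptors that also restrains some RNA viruses, was at 3.59, 5.64 and 4.50 CPM in WT-PBS, 46.1, 35.3 and 54.7 CPM in KO-PBS and 5.06, 5.11 and 6.08 CPM in WT-LPS, so that WT-LPS overlapped WT-PBS and KO-PBS did not. Its genotype change was 3.31 (standard error 0.21, adjusted p = 1.2e-06).
Lgals3bp, a secreted glycoprotein that binds galectins, rose from 175.04, 201 and 283 CPM to 1492, 1415 and 1437 CPM, 2.72 on the log2 scale (adjusted p = 1.7e-06, standard error 0.18). Scaled by gene length it moved from the third to the second highest level of the list, at 77.3 CPM per kb in WT-PBS and 509 CPM per kb in KO-PBS. Ly6e, a membrane anchored antiviral protein, had the highest level in both groups, at 328 and 534 CPM per kb. Bst2 (tetherin), which holds budding virus particles at the cell surface, changed by 1.94 (standard error 0.14).

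The Schlafen genes, which encode regulators of immune cell quiescence and of tRNA, were all higher in KO-PBS, 5 of 5. Slfn5 was at 3.94, 5.04 and 11.6 CPM in WT-PBS and at 90.3, 86.4 and 99.5 CPM in KO-PBS. The groups did not overlap, although Control_PBS_175 was above its group, and the log2 fold change was 3.73 (standard error 0.34, adjusted p = 2.3e-05). Slfn1 was at 0 in all WT-PBS libraries and at 0.312, 1.14 and 0.815 CPM in KO-PBS. Against a floor of 3 counts over the WT-PBS group, its mean was at least 23.7-fold higher in KO-PBS (adjusted p = 0.0029).
Of the nuclear body genes, both rose. Sp100, a core protein of these bodies that represses viral genomes, was at 8.52, 6.87 and 8.28 CPM in WT-PBS and 82.4, 71.1 and 80.0 CPM in KO-PBS, 3.30 on the log2 scale (adjusted p = 1.2e-07, standard error 0.15). Pml, the scaffold of the bodies, changed by 0.85 (standard error 0.18, adjusted p = 0.010).

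Of the 7 RNA and nucleotide enzymes, 6 were higher. The largest change was that of Helz2, a helicase and nuclear co-activator, from 4.83, 3.66 and 12.7 CPM to 57.2, 56.3 and 57.3 CPM, 3.00 on the log2 scale (adjusted p = 0.00093, standard error 0.43). Eif2ak2 (PKR), which halts translation on double-stranded RNA, changed by 1.505, the sensor-related helicase Ddx60 by 1.52, the exonuclease Isg20 by 1.74 and the RNA-editing enzyme Adar by 1.07. Samhd1, which depletes nucleotides needed for reverse transcription, changed by 0.53 (adjusted p = 0.036), and this call was lost in 9 of the alternatives run, with adjusted p up to 0.13.
The ISG15 and ubiquitin group rose in 7 of 8. Ube2l6, the conjugating enzyme for ISG15, was at 9.76, 15.5 and 8.26 CPM in WT-PBS and 31.3, 30.2 and 35.4 CPM in KO-PBS, with a change of 1.53 (standard error 0.22, adjusted p = 0.00079), and Uba7, the activating enzyme of the same pathway, changed by 0.94. The ligases Herc6, Trim25, Trim30a, Trim30d and Dtx3l changed by 0.61 to 1.12.
All 4 ADP-ribosyltransferases rose, by 0.73 to 1.14. Parp14, the largest of them by change, was at 92.8, 96.7 and 108 CPM in WT-PBS and 218, 192.96 and 243 CPM in KO-PBS (standard error 0.22, adjusted p = 0.0049).

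Of the 9 cytosolic adaptors and others, 7 rose. Ifi44, an interferon-induced cytosolic protein, had 11 reads in 1 of the 3 WT-PBS libraries and none in the others, and stood at 8.20, 8.35 and 13.7 CPM in KO-PBS. Its log2 fold change was 6.35 (standard error 0.81, adjusted p = 0.00037) and rests on a baseline of those 11 reads. Gm4951, an interferon-inducible GTPase-like gene, was at 0.740, 0.529 and 2.33 CPM in WT-PBS and 18.8, 14.99 and 19.0 CPM in KO-PBS, a change of 3.83 (standard error 0.42, adjusted p = 0.00012). Xaf1, an antagonist of the apoptosis inhibitor XIAP, went from 3.66, 5.18 and 6.27 CPM to 31.5, 31.5 and 41.7 CPM.
The 4 genes that did not pass in this comparison were Trim21, Nmi, Stat5a and Znfx1. Trim21, a cytosolic antibody receptor and ubiquitin ligase, was at 30.3, 26.4 and 23.4 CPM in WT-PBS and 30.3, 28.6 and 33.7 CPM in KO-PBS (log2 fold change 0.21, adjusted p = 0.43), and its promoter holds the overlapping cores printed above. Nmi, which binds Stat proteins and Ifi35, was at 8.07, 5.07 and 7.08 CPM against 8.61, 10.8 and 7.70 CPM (adjusted p = 0.30). Znfx1, a helicase that senses viral RNA, was at 204, 221 and 255 CPM against 313, 309 and 327 CPM, with no overlap but an adjusted p of 0.051. Stat5a, a signal transducer of growth factor and cytokine receptors, was at 36.0, 41.9 and 46.8 CPM against 39.2, 33.1 and 29.5 CPM (adjusted p = 0.52).

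The second question was which of the genes were also raised by a single LPS injection of control mice. In WT-LPS against WT-PBS, 9 of 44 were higher and 4 lower, where 10.7% and 9.15% of all tested genes were, and the median log2 fold change was 0.19 (0.02 over all genes). The share raised by LPS was thus 9 of 44 beside a background of 10.7%, and the share raised by genotype 40 of 44 beside 8.19%. Together the comparisons left 31 genes raised by genotype only, 9 raised by both, 0 by LPS only and 4 by neither. Without Control_PBS_175 these were 32, 9, 0 and 3, with 6 genes lower in WT-LPS, and without Control_PBS_171 the number raised by both was 5. The number raised by neither was 9 without Control_PBS_171 or KO_PBS_638 and 10 without KO_PBS_642. The classes rest on passing the test. Of the genes classed as raised by genotype only, Isg20, Lgals9, Slfn8, Xaf1 and Phf11d had all WT-LPS libraries above all WT-PBS libraries without passing. In WT-LPS the border-associated macrophage markers summed to 19.8 to 24.3 CPM, above WT-PBS, and neuronal markers to 15.1 to 17.1 CPM against 5.67 to 9.48 CPM in WT-PBS, and their part in the changes was not tested.
Under a stricter rule (a log2 fold change over 1 at an adjusted p below 0.01), 21 genes were raised by genotype only and 4 by both, with 2.80% of all genes past it for genotype and 4.02% for LPS.

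**Figure D2:**
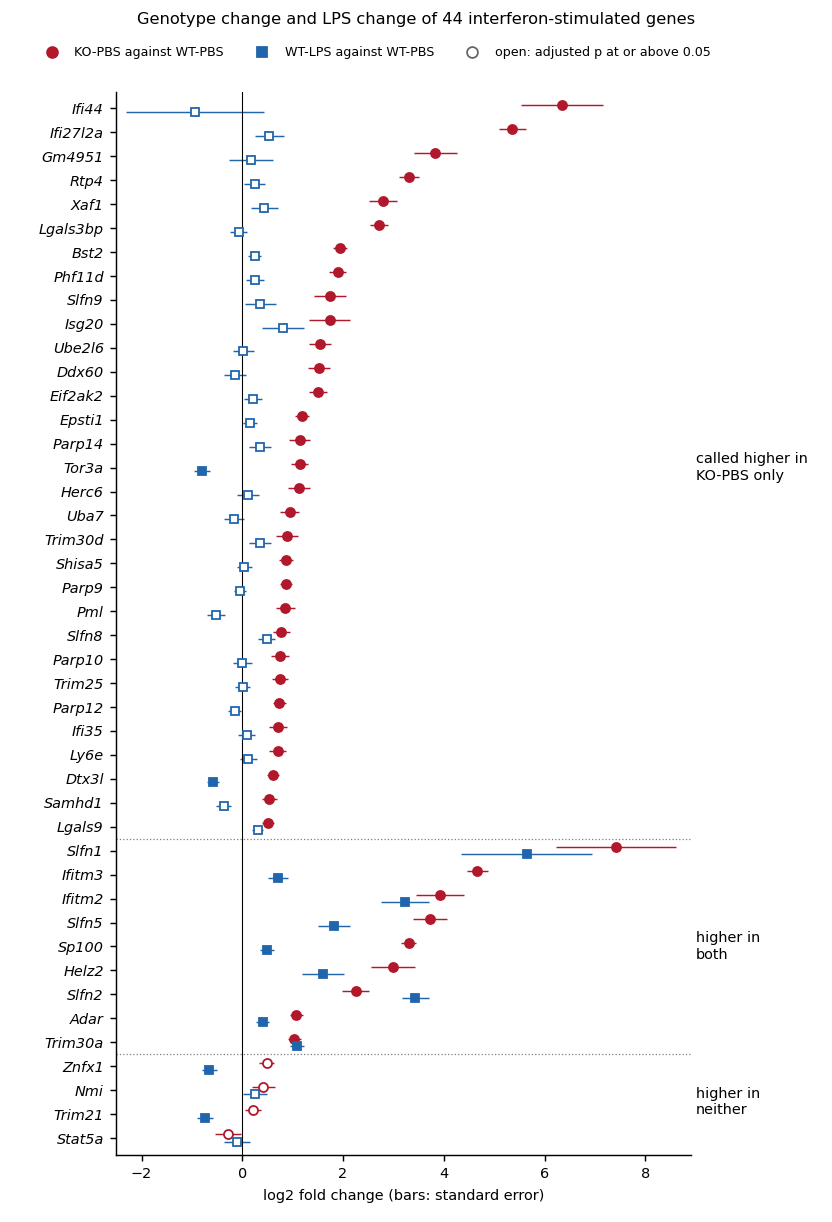
Log2 fold change with its standard error for each of the 44 genes, KO-PBS against WT-PBS (red circles) and WT-LPS against WT-PBS (blue squares), with filled symbols for an adjusted p under 0.05. In the upper block of 31 genes called higher in KO-PBS and not in WT-LPS, each red circle lies to the right of its blue square, and the filled squares of Tor3a and Dtx3l lie below 0. The way this block was picked favours that order of circle and square. Both series share the WT-PBS libraries, so a shift of WT-PBS moves both.

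The 9 genes raised by both were Ifitm2, Ifitm3, Adar, Helz2, Trim30a, Sp100, Slfn1, Slfn2 and Slfn5. Slfn2, needed for T cell quiescence, was the only one lower in KO-PBS than in WT-LPS. It was at 9.58, 12.8 and 22.2 CPM in WT-PBS, 74.4, 60.9 and 76.8 CPM in KO-PBS and 193.004, 141 and 149.5 CPM in WT-LPS, and KO-PBS minus WT-LPS was -1.19 (adjusted p = 0.0042, standard error 0.25). All WT-LPS libraries were above all KO-PBS libraries for this gene alone.
Trim30a, which dampens Toll-like receptor signalling in mice, was at 116, 105 and 115 CPM in WT-PBS, 226, 216 and 246 CPM in KO-PBS and 281, 213 and 216 CPM in WT-LPS. Its changes by genotype and LPS were 1.03 and 1.08 (adjusted p = 0.00043 and 0.00018), and their difference was -0.05 with a 95% interval from -0.34 to 0.24.
Ifitm2 was at 0.0704, 0.317 and 0.268 CPM in WT-PBS, 3.31, 4.25 and 2.75 CPM in KO-PBS and 3.11, 1.77 and 1.46 CPM in WT-LPS. Slfn1, at 0 in WT-PBS, reached 0.112, 0.170 and 0.364 CPM in WT-LPS, at least 6.76-fold above the floor, and this call was lost in both limma fits.
Slfn5 was at 25.1, 26.5 and 21.7 CPM in WT-LPS, between WT-PBS and KO-PBS, with an LPS change of 1.82 (adjusted p = 0.0020). Helz2 was at 24.1, 20.2 and 20.8 CPM (LPS change 1.61, adjusted p = 0.018) and Sp100 at 9.22, 11.4 and 12.7 CPM (0.49, adjusted p = 0.031). The LPS call was lost in 3 alternatives for Helz2 and in 5 for Sp100. The LPS change of Adar was the smallest, at 0.40 (adjusted p = 0.045), and its call was lost in 13 alternatives.

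The 4 genes lowered by LPS in control mice are a share close to the 9.15% of all genes lowered, and are given for their levels. Tor3a, an interferon-responsive ATPase of the endoplasmic reticulum, was at 80.1, 89.6 and 135 CPM in WT-PBS, 229, 214 and 226 CPM in KO-PBS and 54.2, 62.3 and 58.9 CPM in WT-LPS. The 3 groups did not overlap, with an LPS change of -0.80 (standard error 0.16, adjusted p = 0.0048) and a genotype change of 1.14 (standard error 0.16, adjusted p = 0.00084). Dtx3l, the ubiquitin ligase that pairs with Parp9, was at 82.3, 92.0 and 88.2 CPM in WT-PBS, 124, 137 and 139 CPM in KO-PBS and 60.5, 59.4 and 55.1 CPM in WT-LPS.
Trim21 fell to 14.2, 18.5 and 15.2 CPM and Znfx1 to 145, 137 and 150 CPM in WT-LPS, with log2 fold changes of -0.74 and -0.65 (adjusted p = 0.0059 and 0.0079). All 4 lowered genes were also higher in KO-PBS than in WT-LPS, but low WT-LPS values were what picked them.

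A missed threshold does not show that a gene did not respond, so KO-PBS was also compared directly with WT-LPS. In this test 34 of 44 genes were higher in KO-PBS and 1, Slfn2, was lower, where 14.3% and 14.0% of all genes were, and without Control_PBS_175 the higher count was 35. Of the 31 genes raised by genotype only, 27 were higher in KO-PBS than in WT-LPS, and the exceptions were Isg20, Lgals9, Slfn8 and Trim30d. These 31 were picked with the same KO-PBS and WT-LPS libraries, which favours this direction, so the 27 give no independent support. The largest differences were those of Ifi44 (7.29, with 5 reads in 1 WT-LPS library and none in the others), Ifi27l2a (4.83), Ifitm3 (3.96), Gm4951 (3.66), Rtp4 (3.07) and Sp100 (2.81). Gm4951 was at 1.31, 1.84 and 1.02 CPM in WT-LPS. Against WT-PBS, the LPS change of Ifi27l2a was 0.53, with a 95% interval from -0.08 to 1.15, and that of Lgals3bp -0.07, from -0.44 to 0.30.

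**Figure D3:**
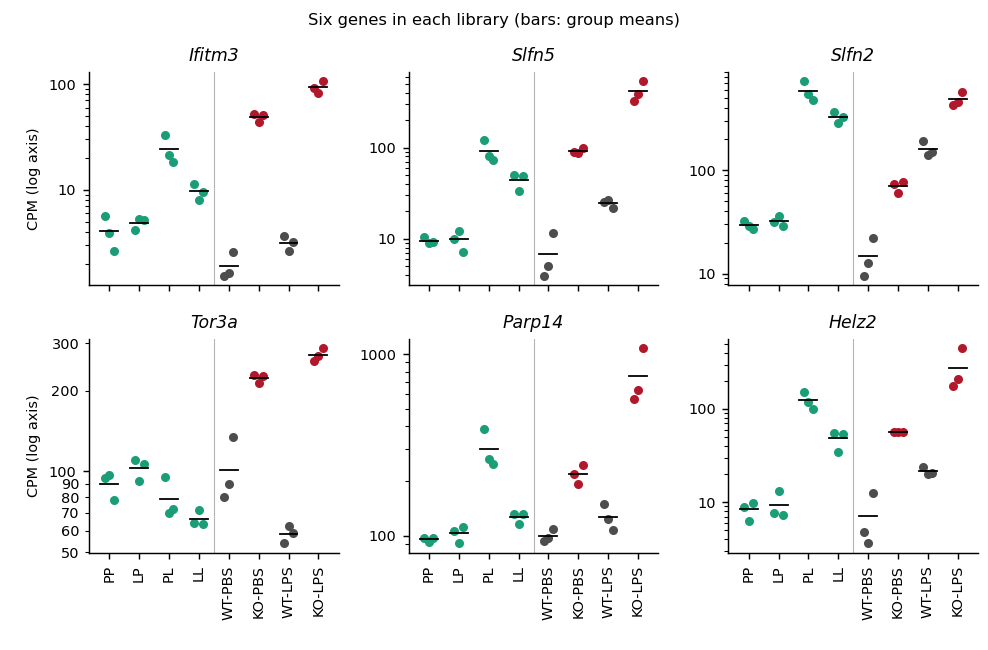
CPM on a log axis in each library of the 8 groups for 6 genes, with bars at the group means. Ifitm3 was high in KO-PBS and KO-LPS, Slfn2 was higher in WT-LPS than in KO-PBS, Tor3a was lower in WT-LPS than in WT-PBS, and Parp14 and Helz2 had their highest values in KO_LPS_600.

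The recurrent model gives LPS responses that share no library with the Ercc1 model, in another strain background, and its levels are set beside the others without a test between models. After a first LPS injection, 22 of 42 genes were higher in PL than in PP and 3 were lower, where 26.0% and 26.6% of all genes were, with a median log2 fold change of 0.48 against -0.04. All 8 tested genes raised by both genotype and LPS in the Ercc1 model were also higher in PL, with log2 fold changes of 0.87 to 4.31. Of the 30 tested genes raised by genotype only, 13 were higher in PL (0.57 to 1.72) and 3 lower. Across the 42 genes, the genotype change and the change in PL had a Spearman correlation of 0.52, as a description over genes that share libraries and are not independent. The correlation over all genes was not calculated, so 0.52 cannot be read as particular to this list.
The 13 that were raised by genotype and by the first LPS of the recurrent model, but did not pass in WT-LPS, were Rtp4, Eif2ak2, Isg20, Trim25, Trim30d, Parp9, Parp10, Parp14, Slfn8, Slfn9, Ifi35, Xaf1 and Gm4951. Another 12 were raised by genotype and passed in neither LPS comparison, namely Bst2, Ly6e, Ifi27l2a, Shisa5, Lgals3bp, Lgals9, Ube2l6, Herc6, Parp12, Pml, Epsti1 and Phf11d. For all 12 the 95% interval of the change in PL stayed under 1 on the log2 scale (highest bound 0.81), and in WT-LPS it did for 11, with Ifi27l2a as the exception. Some of these intervals left out 0, namely those of Lgals3bp in PL (0.04 to 0.53) and Lgals9 in WT-LPS (0.06 to 0.55). That of Pml in WT-LPS lay below 0 (-0.92 to -0.12).

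Slfn2 had the largest change in PL. It was at 32.5, 28.7 and 27.1 CPM in PP and 731, 553 and 477 CPM in PL, 4.31 on the log2 scale (adjusted p = 4.1e-10, standard error 0.17). Helz2 rose from 8.88, 6.28 and 9.91 CPM to 154, 119 and 101 CPM (3.96, standard error 0.26, adjusted p = 3.1e-08), and Trim30a from 118, 116 and 135 CPM to 641.6, 573 and 469 CPM (2.19, standard error 0.14, adjusted p = 1.7e-08). For each of these genes the groups were far apart.
Ifitm2 was at 0.231, 0.449 and 0 CPM in PP and 3.62, 2.697 and 5.01 CPM in PL (3.61, adjusted p = 1.5e-05). Parp14 rose from 96.7, 92.3 and 97.5 CPM to 386, 263 and 247 CPM (1.65, adjusted p = 7.9e-07) and Sp100 from 16.8, 18.5 and 20.2 CPM to 34.2, 38.4 and 28.5 CPM (0.87, adjusted p = 0.00016). Gm4951 was at 1.62, 2.31 and 2.10 CPM in PP and at 5.12, 5.66 and 2.43 CPM in PL, where replicate 3 was close to PP (1.13, adjusted p = 0.011).
Ifi27l2a was at 4.62, 3.72 and 2.86 CPM in PP and 4.68, 4.05 and 4.01 CPM in PL, overlapping, with a change of 0.17 (95% interval from -0.47 to 0.81). Of the 4 genes not raised by genotype, Stat5a was the only one higher in PL, at 38.4, 35.6 and 35.4 CPM against 45.0, 44.9 and 53.8 CPM (0.39, adjusted p = 0.0061), and Nmi was at 16.0 to 18.5 CPM in PP and 17.0 to 18.7 CPM in PL.
The genes lowered in PL were Samhd1, Uba7 and Ddx60. Samhd1 was at 135, 131 and 179 CPM in PP and 77.4, 64.2 and 75.0 CPM in PL (-1.03, adjusted p = 2.6e-05). Uba7 fell from 213, 211 and 332 CPM to 94.7, 152 and 144 CPM (-0.95, adjusted p = 0.0012), and Ddx60 from 13.8, 14.4 and 21.7 CPM to 8.30, 10.4 and 9.73 CPM (-0.79, adjusted p = 0.0019). None of these groups overlapped, and all 3 genes were among those raised by genotype only.
In PL the microglial markers summed to 7375 to 9862 CPM against 17037 to 19322 CPM in PP, neutrophil markers to 0.971 to 255 CPM against 0 to 44.8 CPM and monocyte markers to 37.0 to 56.2 CPM against 21.9 to 26.9 CPM. The part of these cells in the changes was not tested, and the count of genes higher in PL was 23 without PL replicate 1 and 23 without PL replicate 2.

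A month after a single LPS injection, no gene of the list passed against PP. In LP against PP, 0 of 42 were higher and 0 lower by edgeR (3 at an unadjusted p under 0.05), as for all genes (0% in each direction, 817 at an unadjusted p under 0.05), and DESeq2 also gave 0 higher. The sum over the 44 genes was 3410 to 3504 CPM in PP and 3432 to 3497 CPM in LP, and 4929 to 6292 CPM in PL.
After a second LPS injection, 14 of 42 genes were higher in LL than in LP and 4 lower, where 15.4% and 15.9% of all genes were, so that the share raised was above and the share lowered near the background. Without LL replicate 1 the count of higher genes was 9. The lowered genes were Samhd1, Uba7, Trim21 and Tor3a, and Tor3a was at 110, 91.9 and 106 CPM in LP and 63.9, 71.9 and 63.7 CPM in LL (-0.62, adjusted p = 0.0026). Trim21 was at 37.7, 35.5 and 34.0 CPM in LP and 24.3, 27.9 and 19.0 CPM in LL. Samhd1 fell from 127, 150 and 128 CPM to 73.6, 90.3 and 74.5 CPM and Uba7 from 198, 246 and 182 CPM to 117, 136 and 121 CPM.

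**Figure D4:**
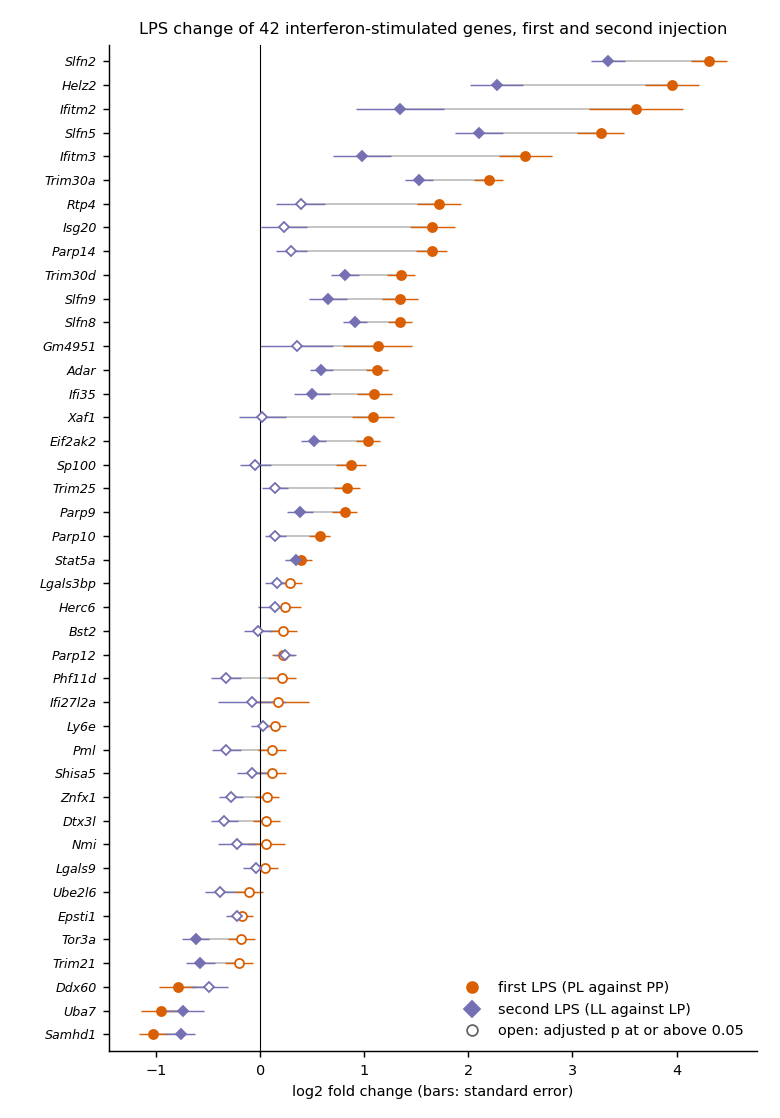
Log2 fold change with its standard error for 42 genes after the first LPS injection (PL against PP, circles) and the second (LL against LP, diamonds), joined by a line, with filled symbols for an adjusted p under 0.05. Helz2 and Slfn2 have circles at 3.96 and 4.31, and each has its diamond to the left.

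Compared directly, 20 of 42 genes were lower in LL than in PL and 0 were higher, where 4.73% and 3.62% of all genes were. The count fell to 11 without LL replicate 2. Of the 5 microglial markers, 4 were higher in LL than in PL, with sums of 10977 to 12449 CPM in LL and 7375 to 9862 CPM in PL. Neutrophil markers summed to 0.487 to 4.97 CPM in LL and 0.971 to 255 CPM in PL, with S100a9, Camp and Ngp lower, and the part of these cells was not tested. Rtp4 was at 51.6, 40.6 and 25.3 CPM in PL and 15.2, 13.1 and 16.3 CPM in LL (-1.42, standard error 0.21, adjusted p = 0.0012), and in PP it was at 11.8, 11.0 and 13.7 CPM. Helz2 was at 55.6, 34.9 and 54.4 CPM in LL (-1.37, adjusted p = 0.0021), below PL and above PP.
Xaf1 fell from 35.2, 46.1 and 31.5 CPM in PL to 16.8, 13.8 and 14.0 CPM in LL (-1.33, adjusted p = 0.0018), with 1 library within the range of PP (14.5 to 25.5 CPM) and the others below it. Parp14 was at 131, 116 and 131 CPM in LL (-1.24, adjusted p = 0.00019), and Slfn5 went from 120, 80.9 and 73.3 CPM to 50.1, 33.4 and 49.2 CPM (-1.05, adjusted p = 0.0060). None of these groups overlapped.
Trim30a was at 355, 284 and 380 CPM in LL (-0.73, adjusted p = 0.0043), Sp100 at 19.7, 18.3 and 24.2 CPM (-0.71, adjusted p = 0.0086) and Slfn2 at 369, 290 and 328 CPM (-0.84, adjusted p = 0.0039). Slfn2 and Trim30a remained above PP in every LL library, while Sp100 overlapped PP.
Tested as a difference between the first and second LPS changes, 5 of the 42 genes had a smaller second response and 0 a larger one, where 1.46% and 0.335% of all genes did. These were Parp14 (-1.35, adjusted p = 0.0045), Helz2 (-1.69, adjusted p = 0.031), Isg20 (-1.43, adjusted p = 0.031), Sp100 (-0.92, adjusted p = 0.037) and Slfn2 (-0.97, adjusted p = 0.040). Isg20 was at 3.12, 2.56 and 2.29 CPM in PP, 7.95, 8.36 and 9.16 CPM in PL, 2.89, 4.33 and 5.20 CPM in LP and 5.11, 4.25 and 5.19 CPM in LL, so that LP and LL overlapped. Left-out libraries moved the number of such genes between 1 and 11, the lowest without PP, LP, PL or LL replicate 2 or LL replicate 1 and the highest without PL replicate 3. It was 3 without PP replicate 1, PL replicate 1 or LL replicate 3. Parp14 passed in every alternative.

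The same genes were then read after LPS in Ercc1-deficient mice. In KO-LPS against KO-PBS, 21 of 44 genes were higher and 2 lower, where 17.7% and 19.3% of all genes were, and the higher count was 15 without KO_PBS_638 or KO_PBS_641 and 25 without Control_PBS_175. In KO-LPS against WT-LPS, 40 were higher and 0 lower, where 13.4% and 13.6% of all genes were, and 41 were higher without Control_PBS_175. The sum over the 44 genes was 3100 to 3448 CPM in WT-PBS, 3553 to 3771 CPM in WT-LPS, 6730 to 7392 CPM in KO-PBS and 10301 to 11303 CPM in KO-LPS, with no overlap between any of these groups.
Slfn2 reached 431, 464 and 571 CPM in KO-LPS, 2.79 above KO-PBS on the log2 scale (standard error 0.26, adjusted p = 9.4e-06). Slfn5 reached 327, 387 and 535 CPM (2.18, adjusted p = 0.00021) and Helz2 178, 208 and 447 CPM (2.29, adjusted p = 0.0010), with KO_LPS_600 highest for all of these.
Of the 9 genes raised by both stimuli, 8 were higher in KO-LPS than in KO-PBS, and of the 31 raised by genotype only, 12 were. Ifi27l2a did not pass, at 42.9, 37.3 and 29.3 CPM in KO-LPS (0.11, adjusted p = 0.72). Uba7 fell from 127, 107 and 138 CPM in KO-PBS to 67.7, 72.9 and 86.8 CPM in KO-LPS (-0.71, adjusted p = 0.013), and Samhd1 from 129, 121 and 139 CPM to 94.0, 105 and 93.4 CPM (-0.41, adjusted p = 0.044), a call that was lost in 13 alternatives.
In KO-LPS, markers of border-associated macrophages summed to 50.8 to 64.0 CPM against 18.9 to 34.1 CPM in KO-PBS, and microglial markers to 6677 to 9333 CPM against 14735 to 16449 CPM. Markers of T and NK lymphocytes summed to 4.57 to 5.24 CPM in KO-LPS against 1.09 to 1.71 CPM in KO-PBS, and neutrophil markers to 0.0320 to 24.2 CPM against at most 0.0312 CPM. Monocyte markers summed to 29.4 to 37.9 CPM in KO-LPS against 19.6 to 24.2 CPM in KO-PBS, with Vcan higher. The part of these cells was not tested.

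The LPS change was larger in KO than in control mice for 5 of 44 genes and smaller for 0, where 1.55% and 3.08% of all genes were. For Dtx3l the LPS change was 0.48 in KO and -0.58 in control mice, a difference of 1.07 (standard error 0.16, adjusted p = 0.0060). Its values in KO-LPS were 163, 177 and 220 CPM, above all other groups of the model.
In WT-LPS, Parp14 was at 148.9, 123 and 107 CPM, and KO-LPS had 566, 637 and 1074 CPM, a difference of changes of 1.45 (standard error 0.30, adjusted p = 0.022). Tor3a was at 259, 269 and 287 CPM in KO-LPS, with a difference of 1.08 (adjusted p = 0.023), and Znfx1 at 297, 343 and 453 CPM, with 0.86 (adjusted p = 0.035). Pml had a difference of 1.03 (adjusted p = 0.042).
In Dtx3l, Tor3a, Znfx1 and Pml the estimated LPS changes had opposite signs in control and KO mice, and of these the KO change passed for Dtx3l and Pml, though that of Pml was lost in 10 alternatives, with an adjusted p of up to 0.22. The count of 5 fell to 1 without KO_PBS_638 or KO_PBS_641 or Control_LPS_184 or Control_LPS_185 and was 2 without KO_PBS_642 and 3 without KO_LPS_194, and it was 8 without Control_PBS_175 or KO_LPS_193. Only the call of Dtx3l held in every alternative.

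Of the list fixed as the pathway upstream (ligand, receptors, kinases, factors and inhibitors), 17 genes were read in the same comparisons. In KO-PBS, 6 of 17 were higher and 1, Ifngr1, lower, and in WT-LPS 7 were higher and 1, Irf8, lower, beside 8.19% of all genes higher in KO-PBS and 10.7% in WT-LPS. Ifnb1, the gene of interferon beta, had no count in any WT-PBS library and stood at 0.281, 0.259 and 0.423 CPM in KO-PBS and 0.927, 0.913 and 3.56 CPM in KO-LPS. Against a floor of 3 counts over the WT-PBS group, its KO-PBS mean was at least 10.1-fold higher, and in WT-LPS 2 reads were found in 1 library.
Irf7, the factor that amplifies interferon production, was at 2.57, 4.58 and 5.55 CPM in WT-PBS, 67.7, 57.9 and 77.3 CPM in KO-PBS and 7.08, 6.88 and 4.88 CPM in WT-LPS. Its genotype change was 3.99 (standard error 0.26), and its LPS change in control mice did not pass (0.56).
Usp18, the protease that removes ISG15, followed Irf7, with 3.80 by genotype and 0.77, not past the test, by LPS. Socs3, an inhibitor of cytokine signalling, had the reverse order, with 0.52 by genotype, which did not pass, and 6.31 by LPS. In the recurrent model 12 of the 16 tested pathway genes were higher in PL and 2 lower, beside 26.0% and 26.6% of all genes, and 7 were lower in LL than in PL with 0 higher, beside 4.73% and 3.62%.

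Promoter chromatin was compared by the authors' peak lists, with a peak counted where it lies within 1000 bp of an annotated start. In ATAC, which marks open chromatin, 31 of the 44 genes (70.5%) had a promoter peak in WT-PBS and 41 (93.2%) in KO-PBS, while over 15100 genes the shares were 75.1% and 80.1%. Peaks at 10 of the 44 genes were in the KO-PBS list and not in the WT-PBS list, beside 5.62% of all genes. These were Gm4951, Helz2, Ifi27l2a, Ifitm2, Pml, Rtp4, Slfn2, Slfn5, Slfn9 and Sp100. Except for Ifitm2 and Slfn9, all of them had a promoter peak in PP, the PBS control of the recurrent model, whose list held 69188 peaks. The WT-PBS list was shorter (36412 peaks against 52325), and with equal numbers of peaks the count was 8, beside 3.56%.
The promoter peak was stronger in KO-PBS at all 31 genes with a peak in both lists, but this held for 97.5% of all genes, so it is no mark of these genes. In WT-LPS, 8 of the 44 genes had a peak that WT-PBS lacked, beside 8.22% of all genes. They were Gm4951, Helz2, Ifi27l2a, Pml, Rtp4, Slfn2, Slfn5 and Slfn9, all of them also among the genes named for KO-PBS. The WT-LPS list held 65323 peaks, and with equal numbers of peaks the count was 6, beside 4.49%. Both comparisons use the same WT-PBS list.
The recurrent lists were longer than those of WT-PBS and KO-PBS, at 65323 to 71667 peaks, and 39 of the 44 genes had a peak in PP already. In PL 3 genes had a peak that PP lacked (Ifitm2, Ifitm3 and Slfn9), beside 2.51% of all genes. The names depend on the setting, since with equal numbers of peaks they were Helz2, Slfn2, Slfn5 and Sp100.

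**Figure D5:**
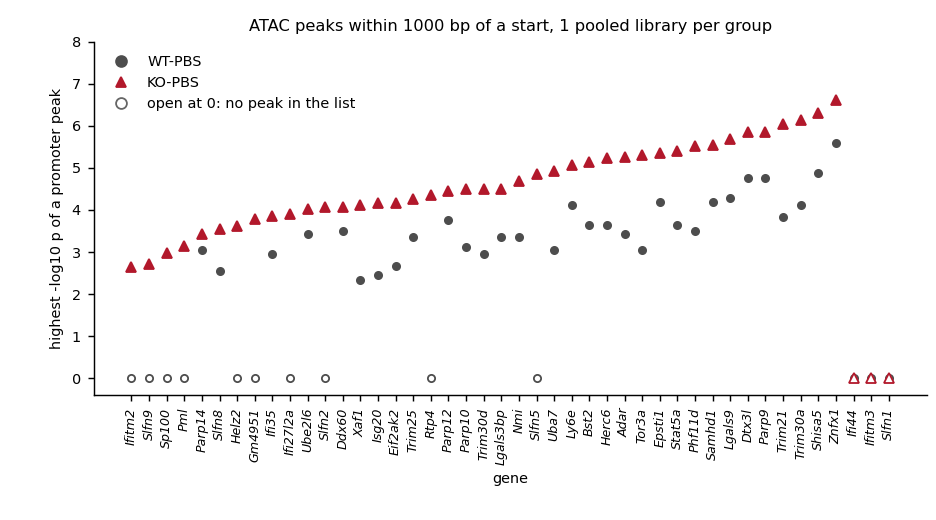
Highest -log10 p of an ATAC peak within 1000 bp of a start for each gene, in the WT-PBS list (circles) and the KO-PBS list (triangles), with open symbols at 0 where the list holds no peak. The 10 genes with a triangle above an open circle have a peak in KO-PBS only, and Ifi44, Ifitm3 and Slfn1 have none in either list.

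The histone marks were compared in the same way. H3K4me3, a mark of active promoters, was listed in KO-PBS and not in WT-PBS at Ifi44, Ifitm2 and Sp100, 3 of 44 beside 0.609% of all genes, and none of the 44 lost it. Among the 40 genes with this peak in both lists it was stronger in KO-PBS at 13, beside 23.6% of all genes. H3K27ac, a mark of active promoters and enhancers, was listed in KO-PBS alone at Helz2, Ifi27l2a, Slfn5 and Sp100, 4 of 44 beside 1.54% of all genes, again with none lost. When a peak had to lie whole inside the window, H3K4me3 was gained at 2 genes and lost at 11 (5.07% and 4.30% of all genes), and H3K27ac was gained at 3 and lost at 3 (5.13% and 5.81%). With any overlap counted, Sp100 had ATAC, H3K4me3 and H3K27ac promoter peaks in KO-PBS and none of them in WT-PBS, and its RNA change was 3.30. PP mice also received only PBS, and the PP ATAC list was longer than that of WT-PBS (69188 peaks against 36412). The PP lists held all of these Sp100 peaks, so their absence from WT-PBS was not a trait of all PBS controls. The highest -log10 p was 2.52, 14.6 and 15.1 in PP, and 2.99, 14.3 and 22.3 in KO-PBS. H3K27me3, a repressive mark, covered 11 of the 44 promoters in WT-PBS and 9 in KO-PBS, beside 25.7% and 24.2% of all genes.
Parp9 and Dtx3l share a promoter peak and are counted as separate genes here. Among the promoters with an ISRE core, 8 belong to the 23 matched genes raised by genotype only, 4 to the 9 raised by both and 1, Trim21, to the 4 raised by neither.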

How the data were processed

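The authors sorted live microglia with high CD11b, intermediate CD45 and no Ly6C. They trimmed reads with bbduk, aligned them with STAR 2.7.3a to GRCm38 and counted genes with featureCounts 2.0.0. The deposited tables hold estimated counts, some fractional, and a gene length in bp, used for levels per kb. Rounding to integers left 99.9% or more of every library total. In the deposited peak lists, the ATAC score, signal and -log10 p were given by Genrich 0.5 (p 0.01, after Bowtie2 2.3.5.1), and the histone score and -log10 p by SPAN against input. Of these, -log10 p was used. H3K4me1 lists were not used, because the file names give the opposite genotype to the labels.

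Each model was fitted over all its genes with edgeR 4.0.16 in R 4.3.3 (filterByExpr, TMM, quasi-likelihood, 4 groups, Benjamini-Hochberg adjustment). p-values rest on a spread between libraries that was estimated over all 12 libraries of a model (3 per group) and moderated across genes. In simulated counts, 80% and 98% of genes changed by 1.5 and 3 on the log2 scale were recovered for PL against PP (15782 genes), and 68% and 87% for KO-PBS against WT-PBS (16975 genes). Alternatives used DESeq2 1.42.0, limma 3.58.1 with and without sva 3.50.0, no filter, a CPM filter, the compared groups alone, a replicate block and each library left out. Values per library were given for the gene with the largest change past the test in each role group and comparison, for genes raised by neither stimulus or lowered, for up to 6 with the largest KO-PBS to WT-LPS difference and up to 4 with the smallest interaction p. Further genes were named after their values were seen. The genes, lists and tests were chosen with earlier results of these data known. Some genes of the marker and pathway lists are not reported here and were left out of their sums and counts.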

Additional observations from a re-analysis of the deposited data

Results flagged for a closer look

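For 5 genes the LPS change differed between Ercc1-deficient and control mice by edgeR's test of the difference. The differences on the log2 scale were 1.07 for Dtx3l, 1.45 for Parp14, 1.08 for Tor3a, 0.86 for Znfx1 and 1.03 for Pml. Dtx3l passed in every alternative run, and the others were lost in 4 (Parp14), 5 (Tor3a), 7 (Znfx1) and 10 (Pml) alternatives, most of them with 1 library left out.

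For 5 genes the second LPS change differed from the first. The differences were -1.35 for Parp14, -1.43 for Isg20, -1.69 for Helz2, -0.92 for Sp100 and -0.97 for Slfn2. Parp14 passed in every alternative run, and the others were lost in 8 (Isg20), 7 (Helz2), 9 (Sp100) and 11 (Slfn2) alternatives. Parp14 was the only gene with a difference past the test in both models.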

How the results depend on the processing

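The 224 changes of single genes that passed in the main fit were recalculated, 4311 times in all. Of these recalculations, 4060 kept their direction and side of the threshold, 251 lost the threshold and 0 turned direction. Changes that did not pass in the main fit are outside this count, so calls gained in an alternative do not appear in it. The number lowered in PL was 5 with limma and sva. The number with a smaller second LPS change was 12 with DESeq2, 16 with limma and sva and 10 without a filter, against 5. The number with a larger LPS change in KO was 9 with DESeq2, 12 with limma and sva and 8 with limma alone, against 5. Under the stricter rule 4 genes were raised by both stimuli and 19 by neither.

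With 1 library left out, the numbers ranged from 23 to 25 (higher in PL), 3 to 4 (lower in PL), 0 to 0 (LP), 9 to 15 (higher in LL than LP), 11 to 21 (lower in LL than PL) and 1 to 11 (smaller second change). In the Ercc1 model they ranged from 34 to 41 (KO-PBS), 5 to 10 (higher in WT-LPS), 4 to 6 (lower in WT-LPS), 15 to 25 (KO-LPS against KO-PBS), 38 to 41 (KO-LPS against WT-LPS), 30 to 35 (KO-PBS against WT-LPS) and 1 to 8 (larger change in KO). The classes ranged from 26 to 34 (genotype only), 5 to 10 (both), 0 to 0 (LPS only) and 3 to 10 (neither).

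Same-numbered libraries of the recurrent model had deviations correlated from -0.41 to 0.41, with every LP and PL pair above 0.1 (0.17, 0.33 and 0.29) but not those of the groups compared, so the numbers were taken to share only a name. With a replicate block, 23 genes were higher and 3 lower in PL, 0 higher in LP, 14 higher in LL than LP, 21 lower in LL than PL and 4 smaller in the second change, with Isg20 and Sp100 no longer past the test. At 3 libraries a group, a missed threshold does not show that a level was equal, and genes near 0, such as Slfn1, Ifi44 and Ifnb1, rest on few reads.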
